A study of Mus musculus with 12 samples.

Results

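The genes described here are the protein-coding UDP-glucuronosyltransferases (UGT) and cytosolic sulfotransferases (SULT) of the mouse, 42 of the 56748 genes counted (21970 of them protein-coding). They were chosen by name, as every protein-coding gene whose symbol begins with Ugt1a, Ugt2a, Ugt2b, Ugt3a or with Sult and a digit, which gave 21 UGT and 21 SULT genes. UGT enzymes sit in the membrane of the endoplasmic reticulum and join a sugar, most often glucuronic acid from UDP-glucuronic acid, to bilirubin, steroids, bile acids and drugs. SULT enzymes work in the cytosol and join sulfate from the donor PAPS to phenols, steroids and amines. Both reactions make small lipophilic molecules soluble for export into bile or blood, and hepatocytes are the main site of both.

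RNA-seq counts came from 12 liver samples of mice fasted for 24 h, 4 per genotype. By their labels, WT livers were controls floxed for Cpt1a, Cpt1b and Cpt2, SKO livers had a Cpt2 deletion and DKO livers deletions of both Cpt2 and Atf3. By the study's methods each deletion was made by Cre under the albumin promoter, which is active in hepatocytes while other liver cells keep the genes. Cpt2 encodes the inner mitochondrial carnitine acyltransferase needed for oxidation of long-chain fatty acids, and Atf3 a transcription factor of the CREB/ATF family that is induced by stress. The labels give no age, sex, date or batch, and the study describes these mice as male. The livers were taken to ask which genes change when Atf3 is lost beside Cpt2. The labels number the samples of a genotype without saying that each came from a separate mouse, so that p-values measure only the spread between these samples, which may be technical.

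Total counts were 14710304 to 20030055 per liver, and a gene without counts could have up to 3 counts by chance, 0.145 to 0.195 CPM (counts per 1000000 counts of the library, scaled by TMM over all 12 livers), a limit that covers counting error only. Cpt2 ranged from 199 to 250 CPM in WT livers, from 109 to 158 in the SKO group and from 99.9 to 125 in the DKO group, and Atf3 from 1.11 to 2.14, 14.5 to 54 and 0.266 to 13.5 CPM. DKO replicates 1 to 3 had 7.91 to 13.5 CPM of Atf3, above every WT liver, and DKO replicate 4 had 0.266 CPM, below them all. These are counts of the whole gene, and the deleted exons were not looked at. SKO replicate 3 and DKO replicate 4 stood apart from the other 10 livers. They had 18063 and 20855 counts on Xist, a transcript of the inactive X chromosome, where the others had at most 19, and 2 and 0 counts summed over the Y-linked Ddx3y, Eif2s3y, Kdm5d and Uty, where the others had 2741 to 4294. Both livers thus differ from the study's description of male mice, and counts of members and listed genes are given with and without them. Hepatocyte markers summed to 71328 to 89400 CPM in WT, 38493 to 68507 in SKO, 40040 to 48722 in DKO replicates 1 to 3 and 91390 in DKO replicate 4. Most of these sums was Alb, with 51850 to 65151, 22524 to 44518, 24688 to 28454 and 74165 CPM. Ttr and Serpina1c were also lower in every SKO than in every WT liver, while Apoa1, Cps1 and Tat overlapped. Markers of kidney tubule summed to at most 1.46 CPM, with Slc12a1 at 0 in every liver.

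Of the 42 members, 24 passed the filter on low counts in both comparisons with WT, 17 UGT and 7 SULT genes, and 22 of them in the comparison of DKO with SKO livers, where Sult2a7 and Ugt1a10 did not pass. Another 4 members, Sult1c1, Sult6b2, Ugt2a1 and Ugt2a2, had 0 counts in every liver. The other 14 were counted but passed in no comparison, and outside SKO replicate 3 and DKO replicate 4 none of these had more than 40 counts in a liver. In WT livers the highest level per kb of gene length was that of Ugt2b5, a steroid-conjugating enzyme, at 386 ± 41.6 CPM per kb (mean ± SD, n = 4). Next were Ugt2b36 with 261 ± 24.5, the phenol sulfotransferase Sult1a1 with 243 ± 47.6 and the bile acid sulfotransferase Sult2a8 with 227 ± 35.2 CPM per kb, and the spreads of these 3 neighbours overlapped. Ugt1a1, the enzyme that conjugates bilirubin, had 37.8 ± 8.07 CPM per kb.

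Together the members took 0.408 to 0.45% of all counts in the WT livers, against 0.23 to 0.402% with SKO and 0.317 to 0.413% with DKO. The SULT genes took 0.106 to 0.138% in WT livers, 0.0265 to 0.0482% in SKO livers and 0.0487 to 0.0569% in DKO replicates 1 to 3, with 0.117% in DKO replicate 4. For the UGT genes the shares of the genotypes overlapped, with 0.295 to 0.312% in WT livers, 0.197 to 0.355% in the SKO group and 0.26 to 0.311% in the DKO group.

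**Figure D1:**
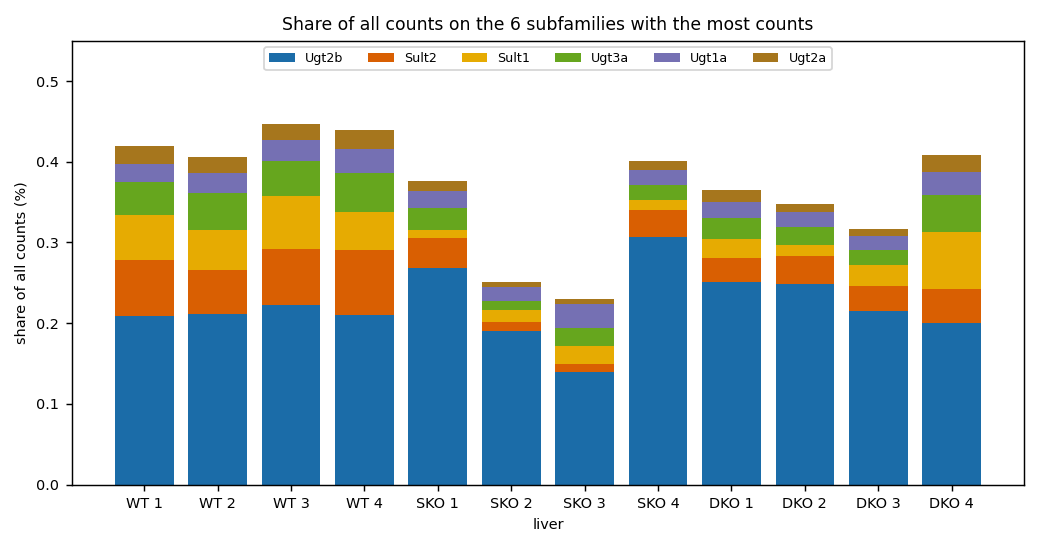
Share of all counts (%) on the 6 subfamilies with the most counts in each of the 12 livers, as stacked bars from 0. The Sult1 and Sult2 segments are smaller in the 4 SKO livers and in DKO replicates 1 to 3 than in WT livers, and DKO replicate 4 has the largest Sult1 segment of the 12 (0.0703%, where WT livers have 0.0478 to 0.0657%).

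In SKO against WT livers 15 of the 24 members tested were lower and 1 was higher at an adjusted p under 0.05 (quasi-likelihood test of edgeR, adjusted by Benjamini-Hochberg over 14261 genes). Over all genes tested 15.4% were lower and 16.7% higher. The median log2 fold change was −1.20 over the 24 members and 0.0306 over all genes. Lower members came from every subfamily with a tested gene, 3 of 4 in Sult1, 2 of 2 in Sult2, the only one in Sult5, 3 of 7 in Ugt1a, the only one in Ugt2a, 3 of 7 in Ugt2b and 2 of 2 in Ugt3a. Without SKO replicate 3, 13 were lower and 2, Ugt2b5 and Ugt2b35, were higher, against 15.2% and 17.3% of all genes. In Ugt2b 1 of 7 was then lower. The 13 ran from −0.52 (SE 0.16, adjusted p = 0.0307) in Ugt2b36 to −4.04 (SE 0.49, adjusted p = 1.2e-04) in Sult2a7 in log2 fold change, and the 2 that no longer passed were Ugt2b1 (−0.98, SE 0.35, adjusted p = 0.0514) and Ugt2b34 (−0.34, SE 0.13, adjusted p = 0.0656). In these bulk livers a smaller number of hepatocytes and less RNA per hepatocyte cannot be told apart. Among the 6 hepatocyte markers Alb, Ttr and Serpina1c fell as well (log2 fold changes of −0.89, −0.89 and −1.56), while the other 3 did not pass the test, and without SKO replicate 3 Tat fell too (−1.56). Of the other cell types, 2 cholangiocyte markers fell (Spp1 and Sox9), the macrophage marker Cd68 and the stellate cell marker Dcn rose, Fabp2, the 1 tested marker of the intestinal epithelium list, rose (1.76, adjusted p = 4.0e-04), and 0 of 5 endothelial markers changed in edgeR or passed at an unadjusted p under 0.05. Summed levels of WT and SKO livers were 187 to 373 and 190 to 405 CPM for 6 macrophage markers, 27.9 to 33.3 and 7.41 to 14.4 for 5 cholangiocyte markers, 156 to 188 and 214 to 306 for 5 stellate cell markers, 138 to 298 and 181 to 240 for the endothelial ones and 79.4 to 98.8 and 194 to 483 for the intestinal ones. Nearly all of the intestinal sum was Fabp2, with 79.1 to 98.3 CPM in WT and 194 to 483 in SKO livers. Vil1 and Muc2 had at most 0.934 and 0.584 CPM, with no higher mean in SKO than in WT livers, and Cdh17 and Sis were at 0. The part of these cell type markers in the members' change was not tested.

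The 3 Sult1 genes that fell in SKO livers did so by 4.03- to 5.39-fold. Sult1a1 (ENSMUSG00000030711, chromosome 7 from 126272037 to 126275604, all such positions as the deposited table gives them), the main hepatic phenol sulfotransferase, had 312, 343, 472 and 339 CPM in WT replicates 1 to 4, 42.6, 103, 142 and 77.3 CPM in SKO replicates 1 to 4 and 126, 100, 166 and 487 CPM in DKO replicates 1 to 4. Every SKO liver and DKO replicates 1 to 3 lay below every WT liver, and DKO replicate 4 lay above them all. In SKO against WT its log2 fold change was −2.01 (SE 0.30, adjusted p = 4.2e-04). Between DKO and WT livers it was −0.71 (SE 0.45, adjusted p = 0.327) with all 4 DKO livers and −1.48 (SE 0.20, adjusted p = 2.0e-04) without replicate 4. Sult1b1 (ENSMUSG00000029269, chromosome 5 from 87661198 to 87686054), which sulfates thyroid hormones and phenols, had 23.1, 16.1, 25.2 and 25 CPM in WT replicates 1 to 4, 3.76, 3.63, 4.62 and 4.6 CPM in SKO replicates 1 to 4 and 8.2, 4.84, 6.91 and 22.9 CPM in DKO replicates 1 to 4. Here the 4 SKO livers lay together below all others, and DKO replicate 4 lay within the WT range. Between SKO and WT livers the log2 fold change was −2.43 (SE 0.19, adjusted p = 5.6e-06). For DKO against WT the value was −1.04 (SE 0.43, adjusted p = 0.143) with all 4 DKO livers and −1.73 (SE 0.22, adjusted p = 1.3e-04) without replicate 4.

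Sult1d1 (ENSMUSG00000029273, chromosome 5 from 87702504 to 87716886), a neighbour of Sult1b1 that sulfates catecholamines, had 226, 179, 233 and 159 CPM in WT replicates 1 to 4, 55.5, 41.4, 65 and 36.7 CPM in SKO replicates 1 to 4 and 87.5, 38.3, 40.2 and 206 CPM in DKO replicates 1 to 4. DKO replicates 2 and 3 lay within the range of the SKO livers, DKO replicate 1 above it, and DKO replicate 4 was again within the WT range. SKO and WT livers differed by a log2 fold change of −2.01 (SE 0.20, adjusted p = 3.0e-05). With DKO livers against WT it was −1.08 (SE 0.49, adjusted p = 0.179) with all 4 DKO livers and −1.84 (SE 0.29, adjusted p = 5.5e-04) without replicate 4. Sult1c2 was tested and passed in no comparison, with 0.949 to 3.13 CPM in WT livers, 0.512 to 1.56 with SKO and 0.675 to 1.02 in DKO replicates 1 to 3, and 8.25 CPM in DKO replicate 4. Sult1e1, the estrogen sulfotransferase, had at most 40 counts in a liver and was not tested.

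In the Sult2 subfamily of hydroxysteroid and bile acid sulfotransferases, Sult2a8 (ENSMUSG00000030378, chromosome 7 from 14144611 to 14180694) was the one with a high level in WT livers. It had 704, 610, 781 and 882 CPM in WT replicates 1 to 4, 353, 113, 85 and 319 CPM in SKO replicates 1 to 4 and 277, 333, 272 and 402 CPM in DKO replicates 1 to 4. No KO liver of either genotype reached the WT range, DKO replicate 4 included. The log2 fold change in SKO against WT was −1.78 (SE 0.40, adjusted p = 0.00522), in DKO against WT it was −1.20 (SE 0.18, adjusted p = 0.00904) and without DKO replicate 4 it was −1.34 (SE 0.15, adjusted p = 4.9e-05). The DKO call was lost with all 12 livers in 1 fit (adjusted p = 0.052). Its neighbour Sult2a7 (ENSMUSG00000094156, chromosome 7 from 14198976 to 14228155) had only 32 to 78 counts in WT livers, 1 to 5 in SKO livers, 10, 3 and 9 in DKO replicates 1 to 3 and 54 in DKO replicate 4. In SKO against WT its log2 fold change was −4.01 (SE 0.42, adjusted p = 4.2e-05), which rests on these few counts. Between DKO and WT livers it was −1.67 (SE 0.68, adjusted p = 0.138) with all 4 DKO livers and −3.06 (SE 0.41, adjusted p = 2.0e-04) without replicate 4. Sult5a1 (ENSMUSG00000000739, chromosome 8 from 123866931 to 123885054) had 19.1, 20.6, 21 and 22.4 CPM in WT replicates 1 to 4, 4.54, 1.84, 3.59 and 5.61 CPM in SKO replicates 1 to 4 and 7.38, 4.84, 3.51 and 14.3 CPM in DKO replicates 1 to 4. WT livers did not overlap with any KO liver. Between SKO and WT livers the log2 fold change was −2.42 (SE 0.27, adjusted p = 5.5e-05), in DKO against WT it was −1.45 (SE 0.37, adjusted p = 0.0389) and without DKO replicate 4 it was −1.98 (SE 0.22, adjusted p = 5.6e-05). The DKO call was lost when any 1 of the 4 WT livers or of DKO replicates 1 to 3 was left out (adjusted p up to 0.101).

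**Figure D2:**
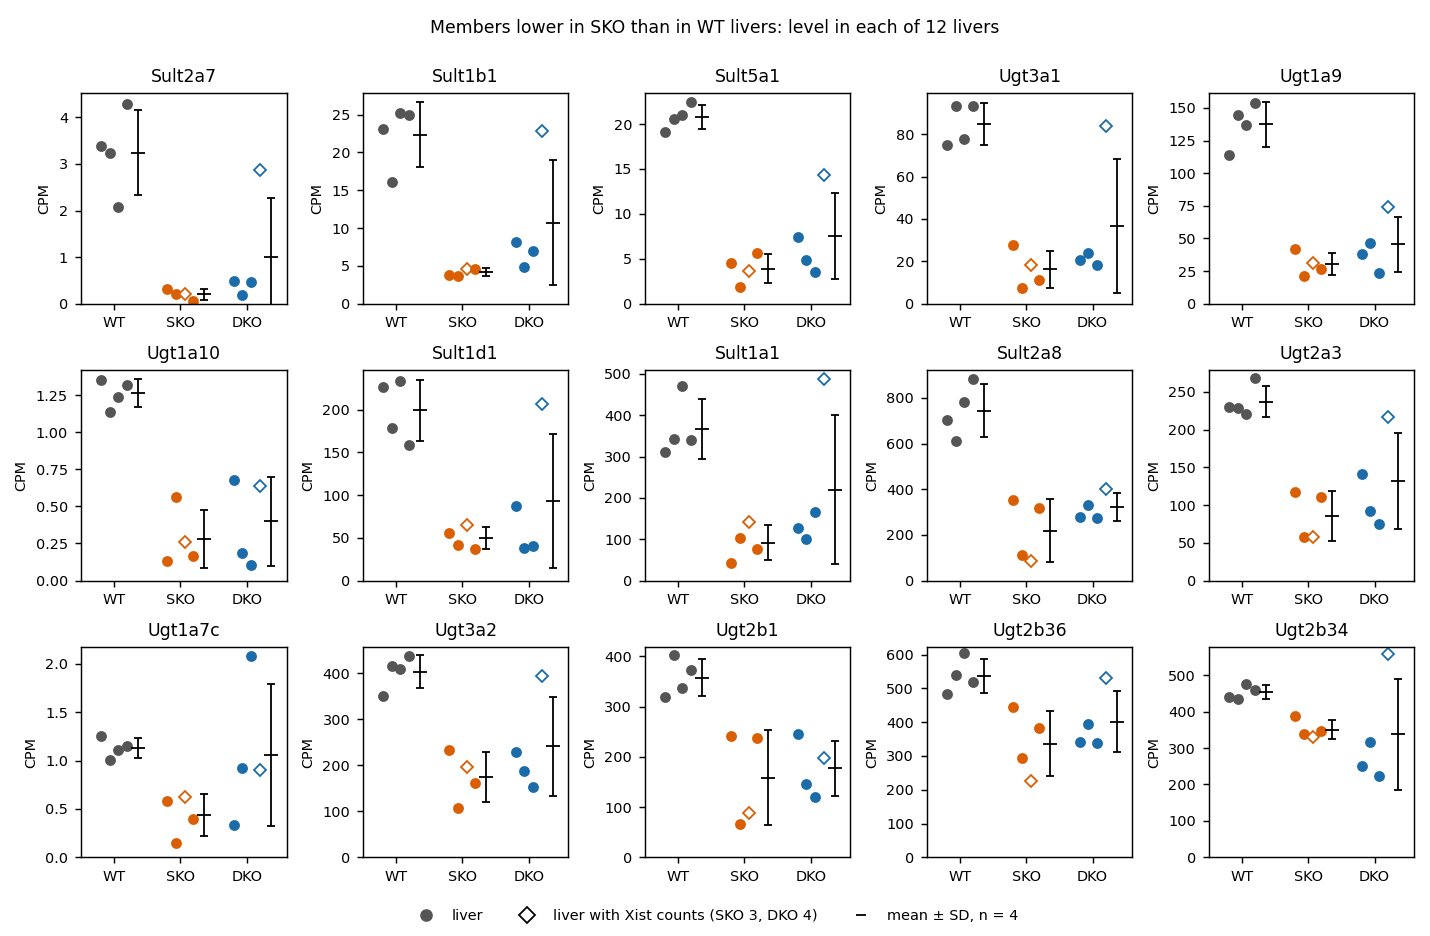
Level in CPM (linear axes from 0) of the 15 members that were lower in SKO than in WT livers, with a point for each of 12 livers, open diamonds for the livers with Xist counts, and the mean ± SD of each genotype (n = 4). All 4 SKO livers lie below all 4 WT livers in every panel, and the open DKO diamond lies within or above the WT range in 8 of the 15. The panels were picked by the test of SKO against WT, which favours livers that do not overlap. The share of all genes so separated was not counted.

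The 9 Ugt1a genes share 1 locus on chromosome 1, where each has a first exon of its own and joins it to a common set of further exons. Each overlaps the other 8 in the deposited table, and 52.3 to 95.7% of the 100-base windows of their transcripts (GENCODE M21) also occur in another member, so that the split of reads among them is uncertain. In SKO against WT livers 3 of the 7 Ugt1a genes tested were lower and 1, Ugt1a1, was higher. Without SKO replicate 3 the counts were 3 lower and 0 higher. Ugt1a9 (ENSMUSG00000090175, chromosome 1 from 87998522 to 88146719), which conjugates phenols, had 114, 145, 137 and 154 CPM in WT replicates 1 to 4, 41.7, 21.6, 31.5 and 26.6 CPM in SKO replicates 1 to 4 and 38.4, 46.4, 23.9 and 73.8 CPM in DKO replicates 1 to 4. All KO livers lay below all WT livers, and DKO replicate 4 was the highest of them. SKO and WT livers differed by a log2 fold change of −2.18 (SE 0.19, adjusted p = 1.4e-05), in DKO against WT it was −1.57 (SE 0.29, adjusted p = 0.017) and without DKO replicate 4 it was −1.92 (SE 0.20, adjusted p = 3.6e-05). The DKO call was lost without WT replicate 2, WT replicate 4, DKO replicate 1 or DKO replicate 2 (adjusted p up to 0.0557).

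Ugt1a10 had 18 to 26 counts in WT livers, 2 to 11 counts with SKO and 2 to 14 with DKO. The log2 fold change in SKO against WT was −2.11 (SE 0.43, adjusted p = 0.00317). For DKO against WT the value was −1.61 (SE 0.50, adjusted p = 0.068) with all 4 DKO livers and −1.91 (SE 0.54, adjusted p = 0.0175) without replicate 4. Ugt1a7c had 16 to 24 counts in WT and 3 to 12 in SKO livers, and 7, 15, 41 and 17 in DKO livers, which overlapped with WT. In SKO against WT its log2 fold change was −1.37 (SE 0.41, adjusted p = 0.0235). With DKO livers against WT it was −0.08 (SE 0.47, adjusted p = 0.93). The fall in SKO livers did not pass with all 12 livers in 1 fit or without WT replicate 1, WT replicate 4 or SKO replicate 4 (adjusted p of 0.0171 to 0.0646 over the alternatives).

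Ugt1a1 (ENSMUSG00000089960, chromosome 1 from 88139681 to 88146719) was the member that rose in SKO livers. It had 65.8, 74.1, 90.6 and 106 CPM in WT replicates 1 to 4, 116, 119, 195 and 111 CPM in SKO replicates 1 to 4 and 107, 108, 74.8 and 151 CPM in DKO replicates 1 to 4. Every SKO liver lay above every WT liver and replicate 3 was the highest of all 12. Between SKO and WT livers the log2 fold change was 0.68 (SE 0.21, adjusted p = 0.025), and without SKO replicate 3 it was 0.46 (SE 0.16, adjusted p = 0.0511). The call was also lost with all 12 livers in 1 fit (adjusted p = 0.0553) and without WT replicate 1 (0.087) or WT replicate 2 (0.0865), and DKO livers overlapped with WT livers (log2 fold change of 0.40, SE 0.22, adjusted p = 0.262). Ugt1a5 had 15.3 CPM in SKO replicate 3 and 20.3 in DKO replicate 4 and 3.84 to 8.68 CPM in the other 10 livers. Ugt1a6a and Ugt1a6b, phenol-conjugating enzymes, had 10.1 to 21.7 and 12.4 to 35.7 CPM over the 12 livers, and with all livers neither passed the test in SKO against WT. Without DKO replicate 4, Ugt1a6b fell in DKO against WT (log2 fold change of −0.76, SE 0.24, adjusted p = 0.0302), while with all 4 livers its adjusted p was 0.0723. Ugt1a2 and Ugt1a8 had at most 15 and 9 counts in a liver and were not tested.

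The first exons of this locus each have a start site of their own, and the 250 bases before those of Ugt1a9 and Ugt1a10 are shown because their windows are related. The sequences and their positions are from RefSeq (GRCm38.p6, another build than that of the gene positions above, plus strand), 5′ to 3′, with capitals at the longest run of bases that both share. Ugt1a9 lies at chr1:88070529-88070778 and Ugt1a10 at chr1:88055161-88055410.
Ugt1a9: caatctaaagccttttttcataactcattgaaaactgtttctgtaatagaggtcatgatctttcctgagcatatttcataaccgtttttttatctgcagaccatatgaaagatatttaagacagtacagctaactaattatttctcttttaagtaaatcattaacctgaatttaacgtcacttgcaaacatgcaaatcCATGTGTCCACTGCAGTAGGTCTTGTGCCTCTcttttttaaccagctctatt
Ugt1a10: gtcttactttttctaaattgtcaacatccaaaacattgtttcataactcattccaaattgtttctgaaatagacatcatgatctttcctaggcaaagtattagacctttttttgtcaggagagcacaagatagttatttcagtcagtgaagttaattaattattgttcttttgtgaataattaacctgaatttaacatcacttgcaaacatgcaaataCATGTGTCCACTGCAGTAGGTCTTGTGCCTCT
The shared run was 32 bases long, began 52 bases before the start of Ugt1a9 and 32 bases before that of Ugt1a10, and occurred in 2 of all 32851 promoters, these included. The longest run that the window of Ugt1a9 shared with that of Ugt1a7c, which fell in SKO livers as well, was 8 bases, and with that of Ugt1a1, the gene that rose, 10 bases.

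The Ugt2 genes lie in a cluster on chromosome 5. Ugt2a3 (ENSMUSG00000035780, chromosome 5 from 87472831 to 87485054), which conjugates bile acids, had 230, 229, 221 and 268 CPM in WT replicates 1 to 4, 117, 57.3, 57.3 and 110 CPM in SKO replicates 1 to 4 and 141, 92, 75.5 and 217 CPM in DKO replicates 1 to 4. KO livers lay below all WT livers, with DKO replicate 4 just under them. SKO and WT livers differed by a log2 fold change of −1.48 (SE 0.24, adjusted p = 6.4e-04). Between DKO and WT livers it was −0.83 (SE 0.30, adjusted p = 0.0987) with all 4 DKO livers and −1.20 (SE 0.19, adjusted p = 7.1e-04) without replicate 4. Ugt2b1 (ENSMUSG00000035836, chromosome 5 from 87064497 to 87074389) had 319, 402, 337 and 373 CPM in WT replicates 1 to 4, 242, 66.5, 87.6 and 237 CPM in SKO replicates 1 to 4 and 245, 146, 121 and 197 CPM in DKO replicates 1 to 4. In both KO genotypes the livers were widely spread and all lay below the WT livers. The log2 fold change in SKO against WT was −1.18 (SE 0.36, adjusted p = 0.0265), in DKO against WT the level fell by 1.00 on the log2 scale (SE 0.22, adjusted p = 0.0245) and without DKO replicate 4 it was −1.06 (SE 0.21, adjusted p = 0.00287). The SKO call was lost with scaling by total counts alone and without SKO replicate 3, WT replicate 2 or WT replicate 4 (adjusted p of 3.8e-04 to 0.0603 over the alternatives). The DKO call was lost with all 12 livers in 1 fit and without any 1 of the WT livers, DKO replicate 2 or DKO replicate 3 (adjusted p up to 0.089).

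Ugt2b36 (ENSMUSG00000070704, chromosome 5 from 87213786 to 87240414) had 483, 539, 604 and 520 CPM in WT replicates 1 to 4, 444, 294, 226 and 383 CPM in SKO replicates 1 to 4 and 340, 396, 339 and 532 CPM in DKO replicates 1 to 4. SKO livers and DKO replicates 1 to 3 lay below the WT livers, SKO replicate 1 only just, and DKO replicate 4 lay among the WT livers. In SKO against WT its log2 fold change was −0.67 (SE 0.19, adjusted p = 0.0198). For DKO against WT the value was −0.40 (SE 0.17, adjusted p = 0.158) with all 4 DKO livers and −0.58 (SE 0.12, adjusted p = 0.00264) without replicate 4. Its fall in SKO livers was lost with scaling by total counts alone and without SKO replicate 2 (adjusted p up to 0.0607 over the alternatives). Ugt2b34 (ENSMUSG00000029260, chromosome 5 from 87037626 to 87054796) had 435 to 477 CPM in WT livers, 329 to 389 in SKO livers, 250, 317 and 224 in DKO replicates 1 to 3 and 559 in DKO replicate 4. Between SKO and WT livers the log2 fold change was −0.37 (SE 0.12, adjusted p = 0.0299), a call kept in 5 of 14 alternatives (adjusted p of 0.00209 to 0.248). Among the fits that lost it were those with all 12 livers, with no filter on low counts, with total counts alone, and without WT replicate 2, 3 or 4 or SKO replicate 3 or 4. In DKO against WT its log2 fold change was −0.41 (SE 0.27, adjusted p = 0.342) with all 4 DKO livers and −0.78 (SE 0.13, adjusted p = 7.7e-04) without replicate 4.

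Ugt2b35 (ENSMUSG00000035811, chromosome 5 from 87148719 to 87161134) ran the other way, with 235, 251, 222 and 219 CPM in WT replicates 1 to 4, 417, 293, 158 and 678 CPM in SKO replicates 1 to 4 and 607, 655, 411 and 123 CPM in DKO replicates 1 to 4. The livers with Xist counts were the lowest of their genotypes and lay below all WT livers, whereas the other 6 KO livers lay above all WT livers. With all livers it passed neither test (log2 fold change of 0.73, SE 0.33, adjusted p = 0.114 in SKO and 0.96, SE 0.40, adjusted p = 0.148 in DKO livers). Without the liver with Xist counts it was 1.00 (SE 0.23, adjusted p = 0.00662) in SKO and 1.27 (SE 0.15, adjusted p = 8.4e-05) in DKO livers. Ugt2b5, the member with the highest level per kb in WT livers, had 637 to 822 CPM in WT livers, 1029, 884, 512 and 1260 CPM in SKO and 902, 931, 743 and 645 CPM in DKO replicates 1 to 4, so that the livers with Xist counts were again the lowest of their genotypes. It passed the test only in SKO against WT without SKO replicate 3 (log2 fold change of 0.56, SE 0.16, adjusted p = 0.0188), and with that liver it had 0.36 (SE 0.23, adjusted p = 0.265). Ugt2b37 and Ugt2b38 had 0.921 to 4.73 and 8.25 to 28.3 CPM and passed in no comparison. Ugt2b5 and Ugt2b38 are each other's closest member, with 24.7% and 24.2% of their transcript windows shared with a member.

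The Ugt3a enzymes use other sugars than glucuronic acid. Ugt3a1 (ENSMUSG00000072664, chromosome 15 from 9276974 to 9315118) had 74.7, 93.5, 77.7 and 93.3 CPM in WT replicates 1 to 4, 27.6, 7.52, 18.3 and 11.4 CPM in SKO replicates 1 to 4 and 20.4, 24.1, 18.2 and 83.9 CPM in DKO replicates 1 to 4. SKO livers and DKO replicates 1 to 3 had less than any WT liver, and DKO replicate 4 lay within the WT range. SKO and WT livers differed by a log2 fold change of −2.39 (SE 0.32, adjusted p = 1.9e-04). With DKO livers against WT it was −1.19 (SE 0.46, adjusted p = 0.117) with all 4 DKO livers and −2.02 (SE 0.13, adjusted p = 1.6e-06) without replicate 4. Ugt3a2 (ENSMUSG00000049152, chromosome 15 from 9335636 to 9371041), its neighbour, had 351, 416, 409 and 437 CPM in WT replicates 1 to 4, 234, 106, 195 and 162 CPM in SKO replicates 1 to 4 and 229, 188, 152 and 394 CPM in DKO replicates 1 to 4. SKO livers and DKO replicates 1 to 3 again lay below all WT livers, and DKO replicate 4 among them. The log2 fold change in SKO against WT was −1.21 (SE 0.21, adjusted p = 0.00101). Between DKO and WT livers it was −0.73 (SE 0.27, adjusted p = 0.109) with all 4 DKO livers and −1.08 (SE 0.15, adjusted p = 2.4e-04) without replicate 4.

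**Figure D3:**
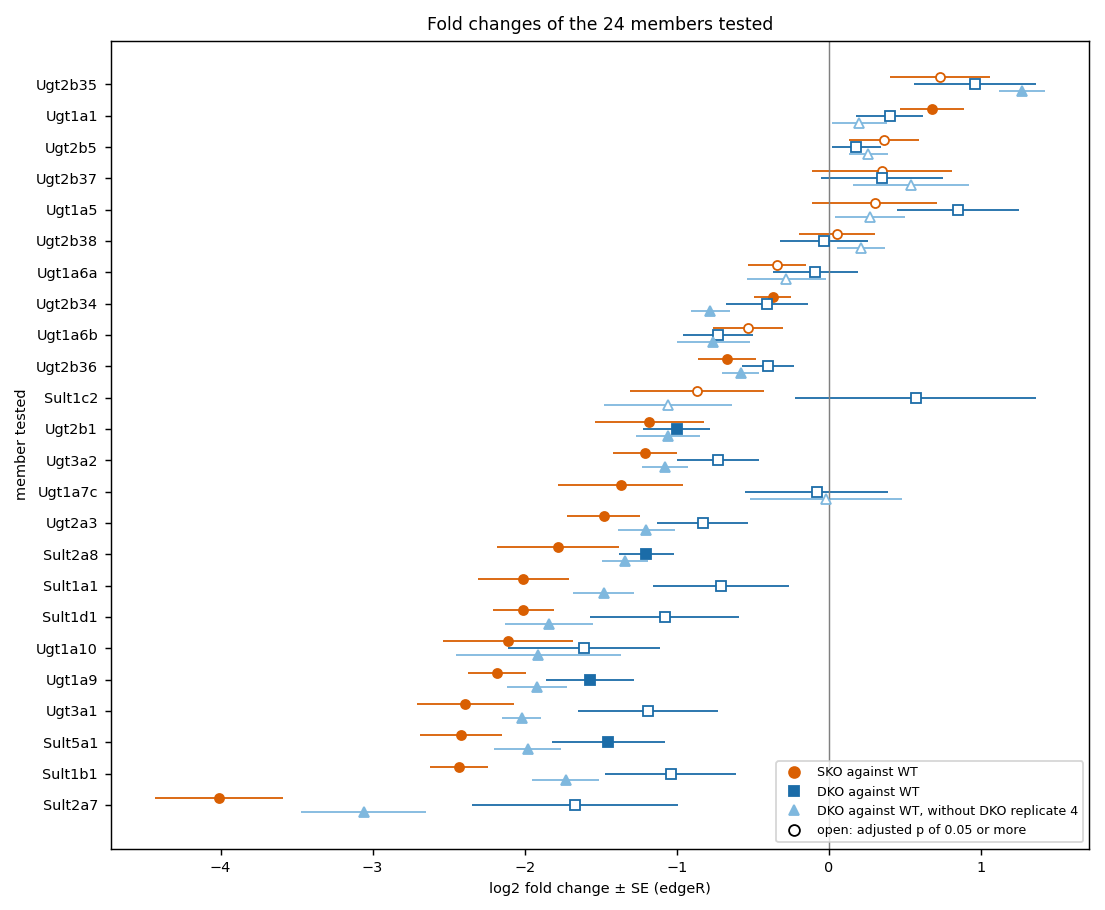
Log2 fold change ± SE (edgeR) of the 24 members tested, in SKO against WT, DKO against WT and DKO against WT without DKO replicate 4, with filled symbols where the adjusted p was under 0.05. Of the DKO comparison 4 symbols are filled with all livers and 16 without DKO replicate 4.

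In DKO against WT livers 4 of the 24 members were lower, namely Sult2a8, Sult5a1, Ugt1a9 and Ugt2b1, and 0 were higher (quasi-likelihood test of edgeR, Benjamini-Hochberg adjusted), where 4.39% of 14448 genes were lower and 6.06% higher. At an unadjusted p under 0.05, 12 were lower and 1 was higher, against 12.8% and 16.6% of all genes. DESeq2 called 8 lower and 0 higher, against 8.58% and 9.66% of all genes. Without DKO replicate 4, 15 were lower and 1 was higher, against 17.5% and 18.4% of 14634 genes. Without any other single liver 1 or 2 members were lower, against 0.802 to 2.38% of all genes. In the fit without DKO replicate 4, 4 of 6 hepatocyte markers fell (Alb, Tat, Ttr and Serpina1c), as did 4 of 6 macrophage markers (Cd5l, Clec4f, Csf1r and Vsig4), the cholangiocyte markers Spp1 and Sox9 and the pancreatic Cela1, while Cd68, Dcn and Fabp2 rose, and their part in the members' change was not tested. Both this comparison and that of SKO with WT livers use the same WT livers. Of the 15 members lower in SKO livers, DKO replicate 4 was within or above the WT range for 8, DKO replicates 1 and 2 for 0 and DKO replicate 3 for 1, Ugt1a7c. Over all 2198 genes lower in SKO livers it was so for 53.9% in DKO replicate 4 and 6.64 to 8.14% in the other DKO livers, so that the members' 53.3% in DKO replicate 4 was near that of all such genes. Of the 6 hepatocyte markers DKO replicate 4 lay above the WT range for Alb and Ttr, within it for Tat (2823 CPM, where WT livers had 2466 to 5049) and below it for Apoa1 (5135, where WT livers had 7714 to 9123), Cps1 (4735, where they had 5155 to 7633) and Serpina1c (631, where they had 846 to 1078). This liver had little Atf3 (0.266 CPM, where DKO replicates 1 to 3 had 7.91 to 13.5). Their part in the members' levels was not tested, and genotype, sex chromosome transcripts and other traits of this liver cannot be told apart.

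The comparison of DKO with SKO livers, whose labels differ by the Atf3 deletion, called 0 of the 22 members tested in either direction (quasi-likelihood test of edgeR, Benjamini-Hochberg adjusted), where 0.00696% of 14363 genes were higher and 0.0139% lower. By counts of the whole gene, DKO replicates 1 to 3 kept Atf3 at 7.91 to 13.5 CPM. This was below every SKO liver (14.5 to 54 CPM) and above every WT liver (1.11 to 2.14 CPM). At an unadjusted p under 0.05, 2 members were higher, Sult1a1 and Sult1b1, and 0 lower, against 4.11% and 2.38% of all genes. DESeq2 also called 0, against 0.466% of all genes higher and 0.209% lower. The median log2 fold change was 0.53 over the 22 members and 0.00858 over all genes, and without DKO replicate 4 it was 0.16 and −0.00454. For Sult1b1 the SKO and DKO livers did not overlap (log2 fold change of 1.41, SE 0.45, unadjusted p = 0.01, adjusted p = 0.583), also without DKO replicate 4 (0.69, SE 0.24, adjusted p = 0.516). Without DKO replicate 4 the livers did not overlap either for Ugt2b34 (−0.41, SE 0.16, adjusted p = 0.623) and Ugt1a1 (−0.49, SE 0.23, adjusted p = 0.705), where DKO livers were lower. The share of all genes without overlap was not counted. For Sult1a1 the log2 fold change was 1.31 (SE 0.53, adjusted p = 0.725), without DKO replicate 4 it was 0.53 (SE 0.33, adjusted p = 0.845) and without both livers with Xist counts 0.83 (SE 0.29, adjusted p = 0.553). Without DKO replicate 4 the test called 0 of 22 members, against 0.0617% higher and 0.0411% lower of all genes, and without both livers with Xist counts 0 of 22, against 0.0905% and 0.0557%. At an unadjusted p under 0.05 the first of these fits had 1 member higher and 1 lower, against 3.77% and 3.45% of all genes, and the second 4 higher and 1 lower, against 3.91% and 3.02%. Over the 22 members the log2 fold changes ran from −0.27 (SE 0.26) in Ugt1a1 to 1.46 (SE 0.81) in Sult1c2. Of the 4 members lower in DKO against WT it was 0.99 (SE 0.47) in Sult5a1, 0.62 (SE 0.33) in Ugt1a9, 0.59 (SE 0.42) in Sult2a8 and 0.19 (SE 0.41) in Ugt2b1, and without DKO replicate 4 it was 0.44 (SE 0.37), 0.26 (SE 0.25), 0.45 (SE 0.42) and 0.12 (SE 0.43). In all 4 the livers of both genotypes overlapped.

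A group of sulfotransferases that was near 0 in 10 livers was counted in the pair with Xist counts. Sult2a1, a hydroxysteroid sulfotransferase, had 81 counts in SKO replicate 3 and 451 in DKO replicate 4, and 0 to 3 in each of the other 10. Sult2a2 had 46 and 219 counts, and 1 count in the other 10 together. Sult3a1, an amine sulfotransferase, had 12 and 546 counts, and 3 counts in the other 10 together. Sult2a5 had 4 and 18 counts, Sult3a2 had 2 and 3, Sult2a6 had 0 and 4, and Sult2a3 and Sult2a4 had 0 and 1, with none of these counted in any other liver. The 3 genes Sult2a1, Sult2a2 and Sult2a5 share 11.4%, 34.6% and 16.6% of their transcript windows with another member, so that some of these reads could belong to a neighbour. Sult2a1, Sult2a2 and Sult3a1 are known for far higher levels in livers of female than of male mice. Sult2a7 and Sult2a8, of the same subfamily, each had the highest level in a WT liver.

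Most other genes listed for a sex bias in mouse liver also stood apart in these livers. Of the 10 female-biased genes listed, SKO replicate 3 lay above all of the other 10 livers for 7 and DKO replicate 4 for 9, while Cux2 and Cyp3a16 in SKO replicate 3 and Trim24 in both lay within their range. Of the 10 male-biased genes SKO replicate 3 lay below the other 10 livers for 9 and DKO replicate 4 for 7, while Slco1a1 in both and Cyp7b1 and Nudt7 in DKO replicate 4 did not. The share of all genes outside the range of the other 10 livers was not counted. Within their own genotypes both livers were the highest for 8.58% of 29605 genes with counts and the lowest for 7.68%. The lists were chosen with earlier results of these data known. The female-biased genes, members left out, summed to 709 CPM in SKO replicate 3 and 1608 in DKO replicate 4, of which Cyp2b9 made up 347 and 631, and to 97.8 to 162 in WT, 64.7 to 91.9 in the other SKO and 86.3 to 105 in the other DKO livers. The male-biased genes summed to 306 and 316 CPM in these livers, and to 3669 to 5107, 1544 to 2962 and 2458 to 3615 in the others. With 1 such liver in each KO genotype and none in WT, no test of this was made.

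**Figure D4:**
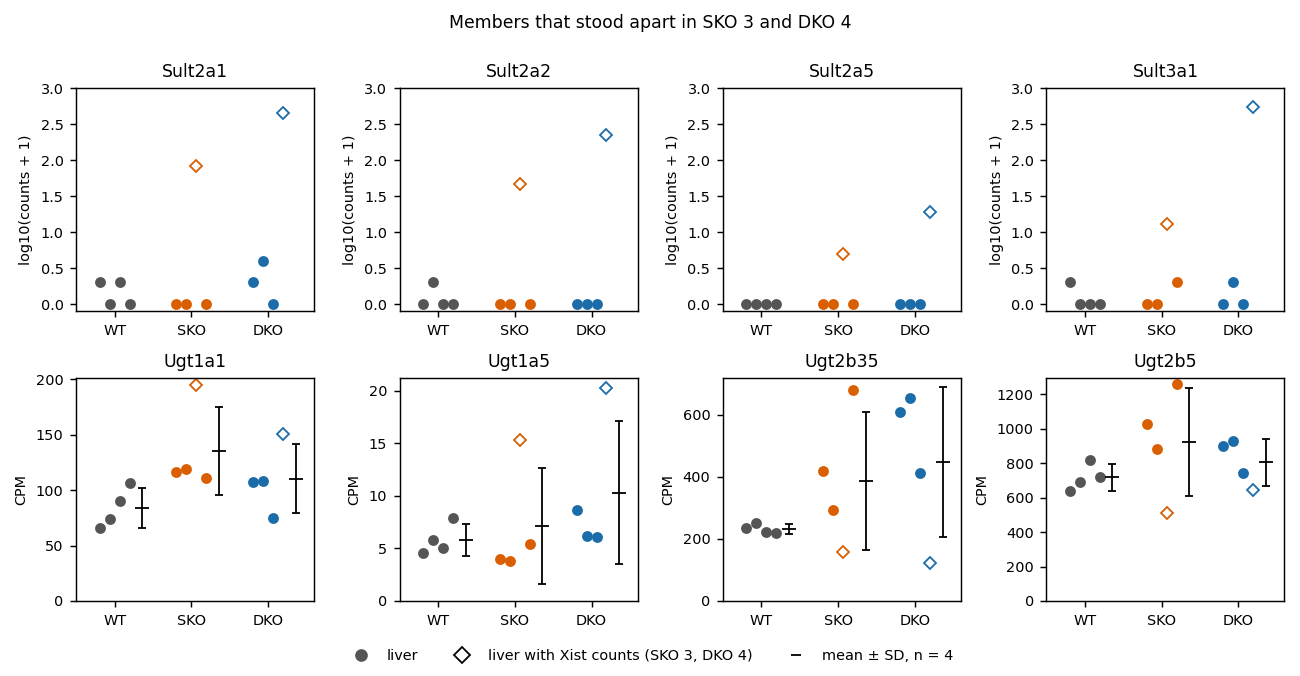
Upper row, log10(counts + 1) of Sult2a1, Sult2a2, Sult2a5 and Sult3a1 in each liver. Lower row, CPM of Ugt1a1, Ugt1a5, Ugt2b35 and Ugt2b5 with the mean ± SD of each genotype (n = 4). The open diamonds, SKO replicate 3 and DKO replicate 4, hold nearly all counts of the upper row, and are the highest of their genotypes for Ugt1a1 and Ugt1a5 and the lowest for Ugt2b35 and Ugt2b5.

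The promoter of Sult3a1 is shown because this gene had the largest count in DKO replicate 4 among the genes near 0 elsewhere for which a promoter was at hand. It is the 250 bases before the start at chr10:33857472-33857721 (RefSeq, GRCm38.p6, plus strand), with capitals at a match to TTCNNNGAA, the motif of the STAT factors that carry the growth hormone signal.
Sult3a1: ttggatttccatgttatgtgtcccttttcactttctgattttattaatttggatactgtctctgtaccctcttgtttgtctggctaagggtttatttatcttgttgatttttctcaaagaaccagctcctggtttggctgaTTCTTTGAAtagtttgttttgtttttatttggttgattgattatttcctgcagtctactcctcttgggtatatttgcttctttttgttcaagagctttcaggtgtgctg
A RefSeq promoter was matched by symbol for 36 of the 42 members. TGACTCA, the AP-1 motif of bZIP factors, occurred on either strand (as TGACTCA or TGAGTCA) within 250 bases before the start of 4 of these 36, Sult1c1, Sult2b1, Ugt2a2 and Ugt2b37, and in 4.46% of all 32851 promoters. It occurred in 0 of the 13 members with a promoter that fell in SKO livers. TTCNNNGAA occurred in 2 of 36, Sult3a1 and Ugt1a6a, and in 7.02% of all promoters. TGACGTCA, the motif of the CREB/ATF family, occurred in 0 of 36 and in 1.55% of all. No matches of different motifs overlapped in the members. Neighbouring members have related sequences, so that these matches are not independent of each other, and they are a description and not evidence of binding.

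Of 11 genes listed for PAPS synthesis and sulfate supply 10 were in the table and 9 were tested, and 6 fell and 0 rose in SKO livers. For this and the next lists the shares over all genes tested were 15.4% lower and 16.7% higher in SKO livers (15.2% and 17.3% without SKO replicate 3), and 4.39% lower and 6.06% higher in DKO livers (17.5% and 18.4% without DKO replicate 4). Papss2, which makes PAPS in the liver, had 159 to 198 CPM in WT, 58.9 to 94.5 in SKO, 44.7 to 49.1 in DKO replicates 1 to 3 and 232 in DKO replicate 4, and its log2 fold change in SKO livers was −1.25 (SE 0.17, adjusted p = 2.2e-04). Suox, which oxidizes sulfite to sulfate, had −1.51 (SE 0.14, adjusted p = 1.9e-05), the sulfate carrier Slc26a1 −1.31 (SE 0.24, adjusted p = 0.00155) and Papss1 −1.58 (SE 0.23, adjusted p = 3.1e-04). Cdo1, which starts the oxidation of cysteine, had −0.92 (SE 0.24, adjusted p = 0.0111), and Bpnt1, which breaks down the spent donor, −0.32 (SE 0.11, adjusted p = 0.0426). Without SKO replicate 3 the other 5 fell as well, and Bpnt1 did not pass (adjusted p = 0.0626). In DKO livers 0 of the 9 passed at the adjusted threshold in edgeR. At an unadjusted p under 0.05 there were 4 (Suox, Bpnt1, Slc35b2 and Papss1), against 12.8% of all genes lower and 16.6% higher. Without DKO replicate 4, 6 fell, among them Papss2, which fell by 2.00 on the log2 scale (SE 0.12, adjusted p = 1.0e-06). Cdo1 did not pass there, with 1363 to 2143 CPM in DKO and 1699 to 2050 in WT livers.

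Of the 8 genes listed for the supply of UDP-glucuronic acid and the removal of glucuronides, 1 rose and 0 fell in SKO livers, and 2 rose and 0 fell without SKO replicate 3. In DKO livers 1 rose and 1 fell, and without DKO replicate 4, 2 rose and 1 fell. Ugdh, which makes UDP-glucuronic acid, had 132 to 166 CPM in WT livers, 431, 351, 168 and 681 in SKO and 560, 547, 453 and 133 CPM in DKO replicates 1 to 4. The livers with Xist counts were close to or within the WT range and the other 6 KO livers well above it. The log2 fold change was 1.48 (SE 0.32, adjusted p = 0.00421) in SKO and 1.54 (SE 0.37, adjusted p = 0.0324) in DKO livers. Without the liver with Xist counts it was 1.74 (SE 0.21, adjusted p = 1.0e-04) in SKO and 1.84 (SE 0.12, adjusted p = 1.8e-06) in DKO livers. Ugp2, which makes UDP-glucose, had 0.38 (SE 0.19, adjusted p = 0.146) in SKO and 0.45 (SE 0.13, adjusted p = 0.053) in DKO livers, and passed without SKO replicate 3 (0.54, SE 0.14, adjusted p = 0.0139) and without DKO replicate 4 (0.37, SE 0.10, adjusted p = 0.0162). Gusb, the lysosomal glucuronidase, fell in DKO livers (−0.44, SE 0.11, adjusted p = 0.0399), also without DKO replicate 4, and had −0.23 (SE 0.11, adjusted p = 0.154) in SKO livers.

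**Figure D5:**
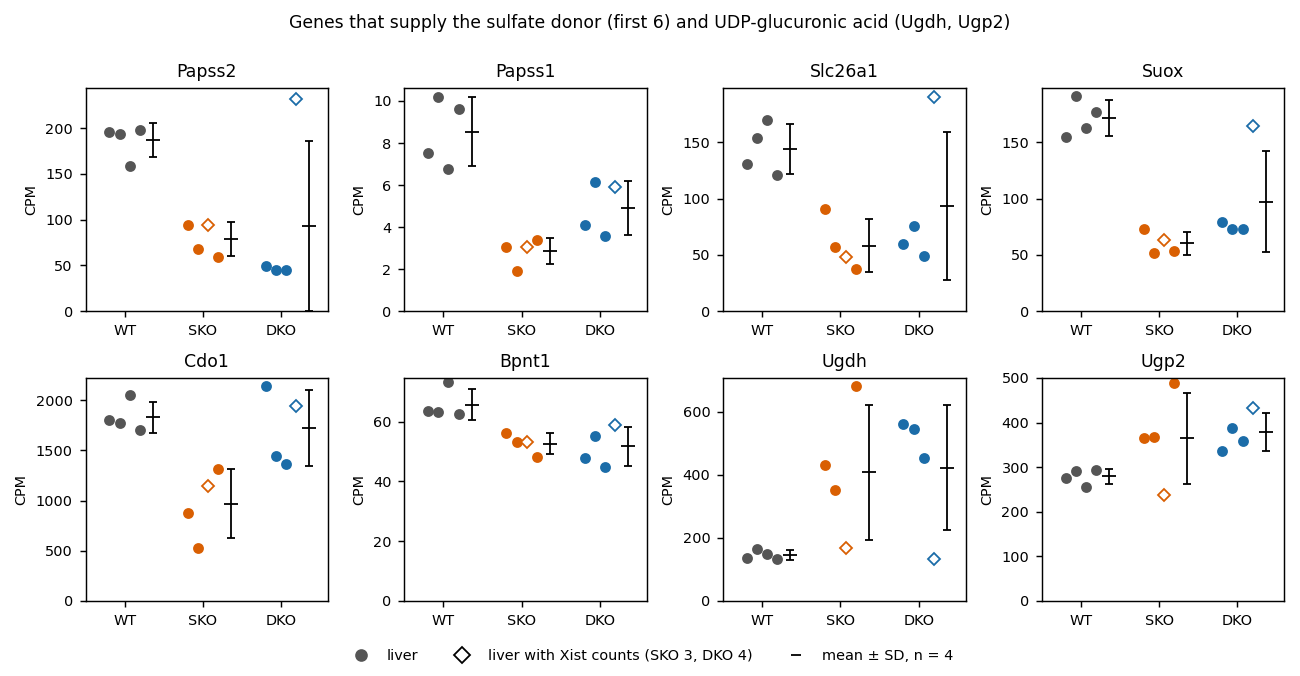
Level in CPM (linear axes from 0) in each liver of 6 genes of sulfate donor supply (Papss2, Papss1, Slc26a1, Suox, Cdo1, Bpnt1) and of Ugdh and Ugp2, with the mean ± SD of each genotype (n = 4). Papss2 and Suox lie lower in the 4 SKO livers and DKO replicates 1 to 3 than in WT livers, and Ugdh lies higher in KO livers except the open diamonds.

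Of the 8 transporters of conjugates, 2 fell in SKO livers, the uptake carriers Slco1a1 (−2.60, SE 0.37, adjusted p = 3.1e-04) and Slco1b2 (−1.28, SE 0.22, adjusted p = 0.00121), and the efflux pump Abcg2 rose (0.43, SE 0.14, adjusted p = 0.039). The uptake carrier Slco1a4 had 104 to 142 CPM in WT livers and 36.3, 24.5, 219 and 61.7 CPM in SKO replicates 1 to 4, so that only the SKO liver with Xist counts lay above the WT range and the others below it. It did not pass with all SKO livers (log2 fold change of −0.52, SE 0.53, adjusted p = 0.498) and fell without SKO replicate 3 (−1.58, SE 0.26, adjusted p = 9.6e-04), where Slco1a1, Slco1b2 and Abcg2 passed in the same directions as before. The canalicular pump Abcc2 had 750 to 1362 CPM in SKO and 854 to 1152 in WT livers. In DKO livers Slco1a1 fell (−2.05, SE 0.22, adjusted p = 0.00337) and no other of the 8 passed. Without DKO replicate 4 Slco1b2 (−1.11, SE 0.13, adjusted p = 6.9e-05) and Slco1a4 (−1.57, SE 0.13, adjusted p = 1.1e-05) fell as well, and Abcg2 rose (0.40, SE 0.12, adjusted p = 0.0258). Among the 11 transcription factors listed as regulators of conjugating enzymes, 0 rose and 3 fell in SKO livers in edgeR, Ahr (−1.13, SE 0.29, adjusted p = 0.0105), Esr1 (−1.38, SE 0.21, adjusted p = 5.4e-04) and Rxra (−0.62, SE 0.15, adjusted p = 0.00677). Ahr had 49.8 CPM in SKO replicate 3 and 19.9 to 23.5 in the other SKO livers, and without replicate 3 the same 3 fell, Ahr with a log2 fold change of −1.52 (SE 0.20, adjusted p = 2.0e-04). Rxra also fell in DKO livers (−0.67, SE 0.18, adjusted p = 0.0467), and without DKO replicate 4 all 3 did. Nr1i2, which encodes the xenobiotic receptor PXR, had 0.16 (SE 0.18) and 0.01 (SE 0.19), and Nfe2l2, which encodes NRF2, 0.30 (SE 0.16) and 0.13 (SE 0.11), and neither passed.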

How the data were processed

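Total RNA of 12 mouse liver samples was sequenced. Unnormalized read counts for each Ensembl gene, as the authors deposited them, were the only values used. The labels name HISAT2 and the builds GRCm38 and mm10, and the counting program and annotation release are not given in the sources used here. Gene coordinates are printed as deposited: 0 of 42 member starts equal those of GENCODE M21 on GRCm38, although all 42 spans do, so the build of the table differs from the labelled one. Deposited FPKM values and the authors' tables of log2 fold changes, p-values and adjusted p-values for each pair of genotypes were not used. Depth was 14710304 to 20030055 counts per liver.

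Each pair of genotypes was compared over 8 livers with edgeR 4.0.16 in R 4.3.3 (TMM, filterByExpr, quasi-likelihood test, two-sided), with Benjamini-Hochberg adjustment over all genes tested and a threshold of 0.05. The SE is the log2 fold change divided by the square root of F. The scripts were tested on simulated data. Levels are CPM with TMM over all 12 livers, divided by gene length for levels per kb. No pair of libraries of a genotype agreed within sampling noise (smallest chi-square per degree of freedom 18.5). Alternatives were DESeq2 1.42.0, other scalings, no filter, all 12 livers in 1 fit, a replicate block, each liver left out, and, for DKO against SKO, Xist as a covariate. Every member could be named, with values of every liver for most of those past the threshold and ranges for the others. The members and lists were chosen with earlier results of these data known. Promoter windows came from RefSeq (GRCm38.p6), and Sult2a1, Sult2a2, Sult2a7, Sult4a1, Ugt1a6b and Ugt3a2 had none in the table. 1 listed transcription factor is not reported here.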

Additional observations from a re-analysis of the deposited data

Results flagged for a closer look

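The lowest and highest liver of each genotype were compared with the other 3 by the ratio of their gap to the range, at the 95% critical value of Dixon's test, for members with at least 10 counts in a liver of that genotype. Of the 83 groups of 4 livers 13 were past it, 8 in DKO replicate 4 and 5 in SKO replicate 3. In 7 of the 13 (Sult2a1, Sult2a2 and Sult3a1 in both livers and Sult2a5 in DKO replicate 4) only the outlying liver had 10 counts, so that the count minimum itself let them in and their number says nothing about chance. Such a test passes about 1 in 20 groups by chance, and the other 6 were among 71 groups with 10 counts in 2 or more livers.

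In DKO replicate 4 Sult1a1 had 487 CPM where the other DKO livers had 100 to 166, Sult1c2 had 8.25 CPM where they had 0.675 to 1.02, Sult2a7 had 2.88 CPM where they had 0.184 to 0.482, and Ugt3a1 had 83.9 CPM where they had 18.2 to 24.1. Sult2a1 had 24 CPM there and at most 0.184 in the other DKO livers, Sult3a1 had 29.1 CPM and at most 0.0613, and Sult2a2 and Sult2a5 had 11.7 and 0.958 CPM with none counted in the other DKO livers. The levels of Sult1a1, Sult2a7 and Ugt3a1 in this liver were near those of WT livers, and those of Sult1c2 (0.949 to 3.13 CPM in WT), Sult2a1, Sult2a2, Sult2a5 and Sult3a1 were above every WT liver.

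In SKO replicate 3 Sult2a1 had 4.21 CPM and Sult2a2 2.39 CPM with none counted in the other SKO livers, and Sult3a1 had 0.624 CPM where they had at most 0.0561. Ugt1a1 had 195 CPM there where they had 111 to 119, and Ugt1a5 had 15.3 CPM where they had 3.84 to 5.45. What sets these livers apart was not tested.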

How the results depend on the processing

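For members higher in SKO against WT (1), the count was 4 without a filter on low counts (Ugt1a1, Ugt2b35, Sult2a1 and Sult2a2) against 8.98% of all genes, 0 with all 12 livers in 1 fit (13.4%), and 0 to 2 over the fits that left out 1 liver (12.4 to 17.3%). The count of members higher in DKO against WT (0) was 2 without a filter (Sult2a1 and Sult3a1) against 3.33% of all genes and 0 to 1 with 1 liver left out (0.828 to 18.4%), 1 of them without DKO replicate 4. The calls of Sult2a1, Sult2a2 and Sult3a1 without a filter rest on 1 liver each: all 81 and 46 SKO counts of Sult2a1 and Sult2a2 were in SKO replicate 3, and Sult2a1 and Sult3a1 had 451 and 546 counts in DKO replicate 4 and at most 3 in any other DKO liver. Members lower in DKO against WT (4) against 4.39% of all genes were 8 with DESeq2 (8.58%), 2 with all 12 livers in 1 fit (Ugt1a9 and Sult5a1, 4.86%) and 1 to 15 with 1 liver left out, 15 of them without DKO replicate 4 (17.5%) and 1 or 2 without any other liver (0.802 to 2.38%). Members lower in SKO against WT (15) ranged from 12 to 15 over all alternatives, against 8.22 to 17.1% of all genes. In DKO against SKO the count was 0 in each direction under every alternative, Xist as a covariate included, where at most 0.466% of all genes were called in a direction. With a replicate block 1 member was higher and 14 lower in SKO against WT (14.6% and 14.3% of all genes), where Ugt2b34 lost its call (adjusted p = 0.0826), and 0 and 4 in DKO against WT (2.3% and 2.48%). Samples of the same number did not deviate together (correlations of −0.392 to 0.127), so the numbers give no pairing. Of 252 log2 fold changes of 18 members in SKO against WT, 23 lost and 3 gained the threshold, and of 224 of 16 members in DKO against WT, 19 lost and 16 gained it, and none changed direction. Scaling by total counts alone moved the median of all genes to 0.204 in SKO and 0.202 in DKO against WT, and 12 members were then lower in SKO livers (11% of all genes lower and 26.4% higher), without Ugt2b1, Ugt2b34 and Ugt2b36. Depth limits Ugt1a10, Ugt1a7c and Sult2a7, with under 80 counts in any liver. The causes were not tested.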
